A study of Mus musculus with 4 samples.

Results

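The genes described here are 32 genes of cholesterol synthesis, uptake control and efflux, out of 24421 genes listed in each library's counts. They were chosen by symbol, from what their products do, and all 32 were found. By role, 18 encode enzymes of synthesis, with 8 in the mevalonate pathway to squalene and 10 between squalene and cholesterol. Another 5 genes control the SREBP transcription factors, 5 belong to LXR receptors and cholesterol export, and 4 encode proteins of intracellular transport and storage.

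The cells were regulatory T cells (Tregs), the Foxp3-expressing CD4 T cells that restrain immune responses, and they had reached the tissue from another animal. A CD45.1+ mouse received EG7.1.15 tumor cells intraperitoneally and was joined by surgery to a tumor-free CD45.1- partner, so that the pair shared a circulation. At day 14 the omental tumor and the spleen of the tumor-bearing mouse were taken, and live cells lacking CD45.1 and B220 and carrying CD45.2, CD4, CD25 and the FoxP3(GFP) reporter were sorted. The labelled strain was B6 Foxp3-DTR/GFP in every library, so all Tregs carried the same marked Foxp3 allele, and every library came from a tumor-bearing host. There were 2 libraries from omental tumor and 2 from spleen, of mouse 2 and mouse 3 in both tissues. No spleen of a tumor-free mouse is among the libraries analysed. The labels do not state sex or age or say whether cells were pooled.

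Animal cells make cholesterol from acetyl-CoA through mevalonate, squalene and lanosterol. When membranes run short of sterol, the escort protein Scap carries the SREBP precursors from the endoplasmic reticulum to the Golgi, where proteases release the factors that turn on the synthesis genes. Insig proteins hold Scap back when sterol is plentiful. Oxysterols, which mark a surplus, activate the LXR receptors, and these induce exporters and a ligase that removes lipoprotein receptors. In T cells, activation and proliferation are known to raise SREBP activity, and in Tregs the mevalonate pathway also supplies the isoprenoids that attach small GTPases to membranes.

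The promoters of Hmgcs1, Mvd, Insig1 and Nr1h2 show the sequence setting of the synthesis and sensing genes. They are given from RefSeq on GRCm38.p6, 5′ to 3′ on the strand of the gene, as bases upstream of the annotated start. Capitals mark matches to the sterol response element TCACNCCAC and to the CCAAT box, the site of NF-Y, which is known to act beside SREBP; both strands were searched, so a CCAAT box on the other strand reads ATTGG. Hmgcs1 is shown because it held the only sterol element match among the members, at chr13:119690101-119690350 on the plus strand. Mvd, at chr8:122443423-122443672 on the minus strand, had the most negative tissue difference among the mevalonate genes. Insig1, at chr5:28071162-28071362 on the plus strand, had a spleen value far below its other values. Nr1h2, at chr7:44553966-44554215 on the minus strand, had the lowest p-value among the members.
Hmgcs1: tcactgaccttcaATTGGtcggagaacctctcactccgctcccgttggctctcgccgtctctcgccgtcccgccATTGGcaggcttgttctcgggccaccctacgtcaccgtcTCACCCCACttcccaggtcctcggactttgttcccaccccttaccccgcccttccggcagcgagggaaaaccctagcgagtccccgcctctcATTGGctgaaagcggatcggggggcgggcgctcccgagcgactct
Mvd: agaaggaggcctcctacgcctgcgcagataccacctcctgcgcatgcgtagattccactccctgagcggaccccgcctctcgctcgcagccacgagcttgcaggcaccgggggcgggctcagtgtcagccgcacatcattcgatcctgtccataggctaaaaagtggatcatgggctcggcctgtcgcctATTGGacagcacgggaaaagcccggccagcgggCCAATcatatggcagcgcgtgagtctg
Insig1: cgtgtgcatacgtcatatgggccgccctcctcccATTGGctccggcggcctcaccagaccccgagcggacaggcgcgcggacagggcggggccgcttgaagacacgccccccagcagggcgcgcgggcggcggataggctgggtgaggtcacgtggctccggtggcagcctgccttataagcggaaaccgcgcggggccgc
Nr1h2: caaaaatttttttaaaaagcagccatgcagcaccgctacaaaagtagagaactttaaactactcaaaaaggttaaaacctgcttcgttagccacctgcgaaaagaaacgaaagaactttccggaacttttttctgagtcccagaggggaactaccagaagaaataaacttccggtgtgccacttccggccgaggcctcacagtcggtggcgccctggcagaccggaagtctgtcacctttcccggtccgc
The Hmgcs1 stretch held 1 sterol element and 3 CCAAT boxes, the Mvd stretch 2 CCAAT boxes and the Insig1 stretch 1, while the Nr1h2 stretch held no match to either. No marked matches overlapped.

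Promoters were found for 26 of the 32 genes, and those of Fdps, Fdft1, Sqle, Abcg1, Npc1 and Stard4 were not matched. In the 250 bases upstream of any of a gene's listed starts, a CCAAT box stood before 14 of 15 synthesis genes (93.3%), with Acat2 as the exception, against 37.5% of 27025 genes in the table. It stood before 4 of 5 SREBP control genes, 1 of 4 LXR and efflux genes (Mylip) and both matched transport genes. The sterol element TCACNCCAC was found before Hmgcs1 alone, against 1.22% of all genes. The E-box CACGTG, another SREBP site, stood before 3 of the 15 synthesis genes, against 6.86% of all genes. The LXR element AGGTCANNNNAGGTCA was found before no member and before 0.0148% of all genes. These are letter matches, not binding sites, and they were not used in any test.

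Libraries held 6660230 and 3764508 counts in genes for omental tumor of mouse 2 and mouse 3, and 9989005 and 13598631 for spleen. Levels are given as CPM, counts scaled to 1000000 reads of library size after TMM scaling, and differences as log2 fold changes of omental tumor over spleen with their standard error. The defining Treg transcript Foxp3 stood at 81.4 and 84.3 CPM in omental tumor, against 113 and 144 CPM in spleen. Markers of other cells were uneven between libraries. The summed level of 9 neutrophil markers was 160 and 1468 CPM in omental tumor, against 102 and 68.3 CPM in spleen, and 4 of the 8 tested were called higher. With the mouse as a replicate block none of the 4 neutrophil calls held (edgeR adjusted p from 0.140 to 0.846), and S100a8 and S100a9 were lower in omental tumor within mouse 2. The 14 macrophage and monocyte markers summed to 523 and 878 CPM in omental tumor, against 245 and 474 CPM in spleen, with 2 of 13 tested called higher, Cd14 and Lyz2. Of these 13, however, 8 had negative fold changes, and the list's median was -0.52. The 7 fibroblast markers summed to 180 and 17.0 CPM in omental tumor, against 19.4 and 7.78 CPM in spleen (1 of 6 tested called higher). The 5 adipocyte markers summed to 7.61 and 45.3 CPM in omental tumor, against 4.99 and 2.84 CPM in spleen, with Plin1 at 0 in 3 libraries and 1 of 2 tested called higher, Fabp4. Of the 45.3 CPM in omental tumor of mouse 3, Fabp4 made 44.3 CPM. Adipoq stood at 0.760 and Lep at 0.253 CPM there, and Plin1 and Cidec at 0. With the block the fibroblast call, of Col3a1 (edgeR adjusted p = 0.177), and that of Fabp4 (0.145) were lost, while Cd14 and Lyz2 stayed called (0.00610 and 0.0351). These cells also make and export cholesterol, and the part of their RNA in the results below was not tested. In bulk RNA, fewer cells of a kind and less transcript per cell cannot be told apart.

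None of the 32 genes was called between the tissues at an adjusted p of 0.05 in edgeR's quasi-likelihood test, where 1.43% of the 16322 genes tested were called, 1.16% as higher and 0.263% as lower in omental tumor. All 32 passed the filter on low counts, which asks for reads in as few libraries as 1 tissue has. Their adjusted p-values ran from 0.477 for Nr1h2 to 0.975 for Idi1. Nr1h2 alone was under an unadjusted p of 0.05, against 10.2% of all genes. The standard errors of the members ran from 0.73 to 1.11 on the log2 scale, and the smallest absolute log2 fold change called among all genes was 2.64, so no difference below that size was called with 2 libraries per tissue. For a single value compared between 2 and 2 libraries, the smallest two-sided p of an exact permutation test is 0.333.

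Most members were nevertheless lower in omental tumor by their fitted value. Log2 fold changes were negative for 23 of the 32, against 46.1% of all genes, and the median was -0.65, against 0.13 over all genes. The count was 18 with upper-quartile factors and 20 with library gene totals. With those settings the median of all genes was 0.62 and 0.40, and the share of all genes below 0 was not counted. Both omental tumor libraries were below both spleen libraries for 13 members (25.4% of all genes), and above both for none (16.4% of all genes). The count of 13 depends on the scaling: with library gene totals in place of TMM it was 10 (19% of all genes), and 2 members were then above in both (21.6%).

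**Figure D1:**
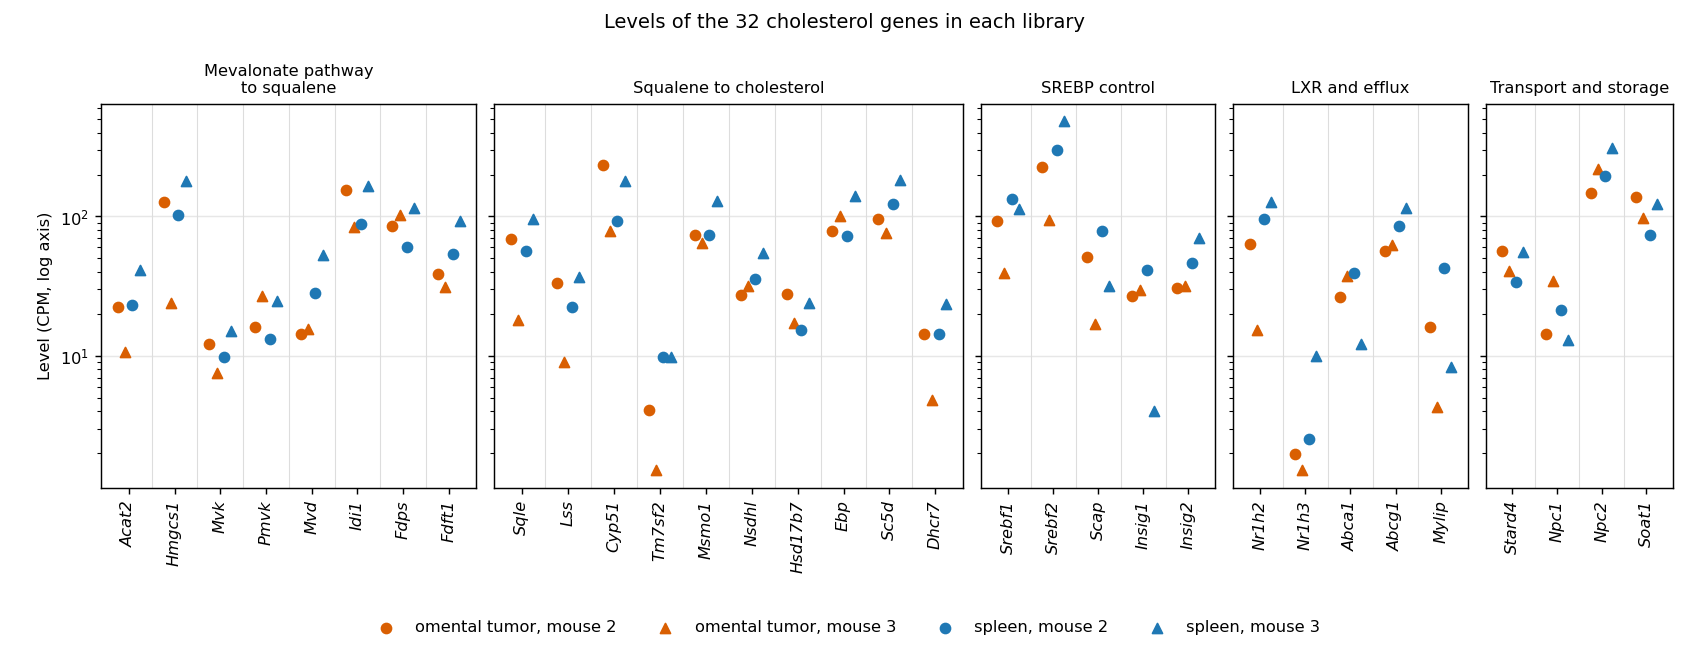
Level of each of the 32 genes in each library, in CPM on a log axis, with 1 point per library: orange for omental tumor and blue for spleen, circles for mouse 2 and triangles for mouse 3. The omental tumor of mouse 3 was the lowest library for 18 genes (36.9% of all genes) and the spleen of mouse 3 the highest for 20 (30.9% of all genes). Insig1 showed the spleen of mouse 3 far below the rest, at 4.03 CPM.

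**Figure D2:**
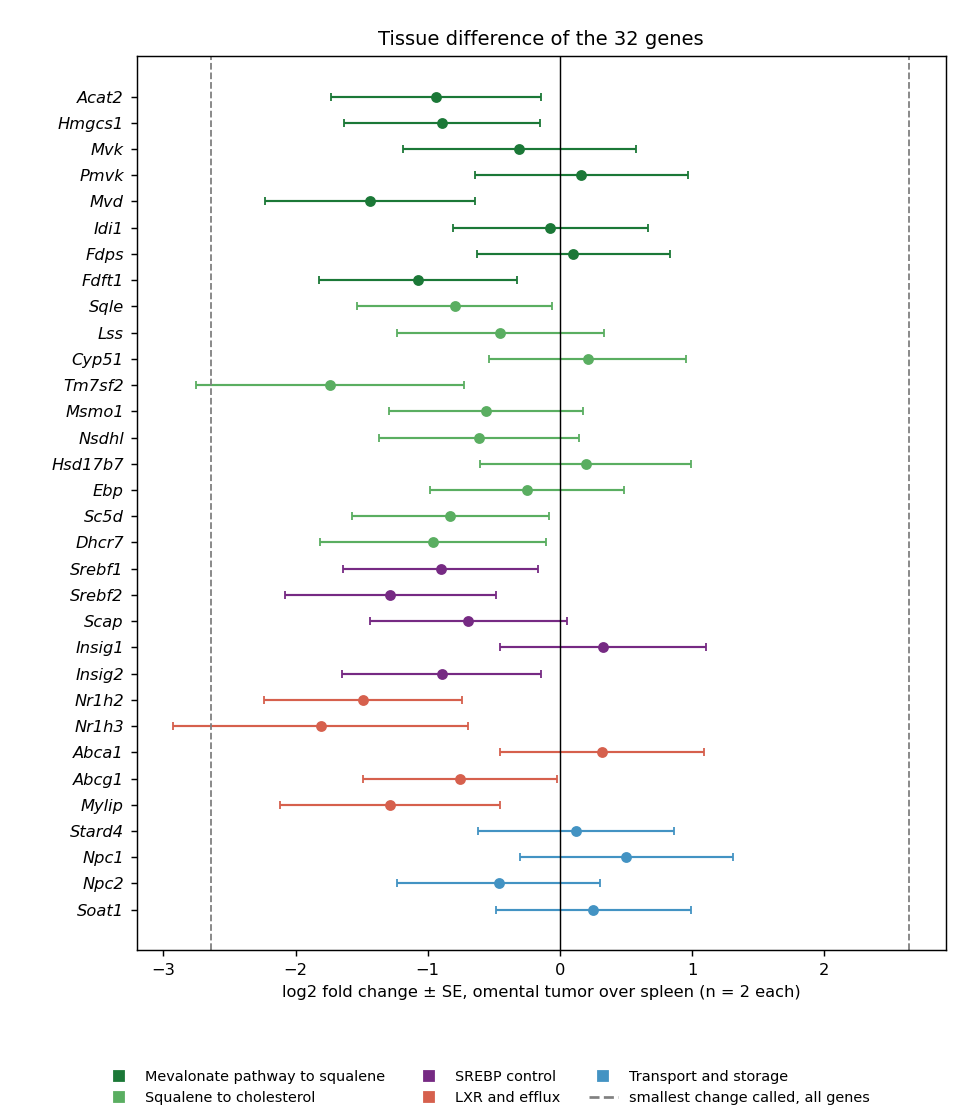
Fitted log2 fold change of each gene, omental tumor over spleen, with bars of 1 standard error and n = 2 libraries per tissue, colored by role. Dashed lines mark 2.64, the smallest absolute change called among all genes, and all 32 points lie between them.

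Among the 8 mevalonate pathway genes the tissue differences ran from -1.44 to 0.16, with a median of -0.60. Acat2, the cytosolic thiolase that joins acetyl-CoA units at the head of the pathway, stood at 22.4 and 10.6 CPM in omental tumor of mouse 2 and mouse 3, against 23.0 and 41.0 CPM in spleen. Its omental values lay below both spleen values, by a small margin in mouse 2 (log2 fold change -0.94 ± 0.79 SE, edgeR adjusted p = 0.703). Hmgcs1, the HMG-CoA synthase of the next step, stood at 126.8 and 23.8 CPM in omental tumor, against 101.9 and 179 CPM in spleen. It was thus higher in omental tumor of mouse 2, and 0.133 of the spleen level in mouse 3. The groups overlapped, and the fitted difference was -0.89 ± 0.74 (edgeR adjusted p = 0.698). Of the Hmgcs1 exons, 12.1% overlap an antisense gene, and whether the counting used strand is not known here.

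The 3 enzymes that turn mevalonate into isopentenyl pyrophosphate differed in their order by tissue. Mvk, mevalonate kinase, stood at 12.2 and 7.60 CPM in omental tumor, against 9.79 and 15.01 CPM in spleen, and Pmvk, the kinase after it, at 16.0 and 26.8 CPM in omental tumor, against 13.3 and 24.8 CPM in spleen. Both overlapped between tissues, with fold changes of -0.31 and 0.16, and Pmvk was the only one of the 18 synthesis genes with positive ratios in both mice (36.9% of all genes). Mvd, the decarboxylase that closes this stretch, was lower in both omental tumor libraries, at 14.3 and 15.7 CPM, against 28.2 and 53.1 CPM in spleen. The libraries differed by an SD of 0.982 CPM in omental tumor, against 17.6 CPM in spleen (n = 2 each), and the log2 fold change was -1.44 ± 0.79 (edgeR adjusted p = 0.535).

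Idi1, the isomerase of isopentenyl pyrophosphate, stood at 155 and 84.3 CPM in omental tumor, against 88.3 and 164 CPM in spleen. The tissues thus swapped order between the mice, and the fitted difference was -0.07. Fdps, which builds farnesyl pyrophosphate at the branch to prenylation, stood at 85.3 and 103 CPM in omental tumor, against 60.9 and 115 CPM in spleen, with overlapping groups and a fold change of 0.10. Fdft1, squalene synthase and the first enzyme committed to sterol, was lower in both omental tumor libraries at 38.6 and 31.4 CPM, against 54.0 and 93.5 CPM in spleen. Its difference of -1.07 ± 0.75 was not called (edgeR adjusted p = 0.650), and 18.3% of its exon bases overlap Ctsb on the other strand. For Fdps 26.7% of exon bases overlap a second gene model on the same strand.

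Of the 10 genes between squalene and cholesterol, 8 had negative fold changes, with a median of -0.59. Sqle, the squalene epoxidase, stood at 68.9 and 18.2 CPM in omental tumor, against 56.7 and 95.6 CPM in spleen. Lss, which cyclises its product to lanosterol, stood at 33.5 and 9.11 CPM in omental tumor, against 22.3 and 36.7 CPM in spleen. Cyp51, the lanosterol demethylase, stood at 234 and 78.7 CPM in omental tumor, against 92.7 and 178 CPM in spleen. In these 3 genes the omental tumor was above the spleen in mouse 2, by 1.22-, 1.5- and 2.52-fold, and in mouse 3 stood at 0.191, 0.248 and 0.442 of the spleen level. Their fitted differences were -0.80, -0.45 and 0.21.

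Tm7sf2, a C14 sterol reductase, had the most negative fold change of the synthesis genes, at low counts. It had 31 and 6 reads in omental tumor, against 101 and 107 in spleen, or 4.07 and 1.52 CPM in omental tumor, against 9.88 and 9.79 CPM in spleen. Groups did not overlap, and the difference was -1.74 ± 1.01 (edgeR adjusted p = 0.565). Of its exon bases, 12.1% overlap Vps51 on the same strand. Lbr, a nuclear envelope protein with the same reductase activity, had a mean of 91.5 CPM per kb of exon in omental tumor, against 229 in spleen, where Tm7sf2 had 0.635 in omental tumor, against 2.23 in spleen. By library Lbr stood at 704 and 167 CPM in omental tumor, against 782 and 1401 CPM in spleen (-1.33 ± 0.92, edgeR adjusted p = 0.651).

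The remaining 6 sterol genes had fold changes between -0.96 and 0.19. Msmo1, the C4-methylsterol oxidase, stood at 73.5 and 64.1 CPM in omental tumor, against 74.0 and 129 CPM in spleen. Nsdhl, the dehydrogenase that completes C4 demethylation with it, stood at 27.2 and 31.6 CPM in omental tumor, against 35.4 and 54.4 CPM in spleen. Both lay below the spleen in each mouse, Msmo1 in mouse 2 only at 0.994 of the spleen level, with fold changes of -0.56 and -0.61. Hsd17b7, the 3-ketosteroid reductase, stood at 27.7 and 17.2 CPM in omental tumor, against 15.4 and 24.1 CPM in spleen, and Ebp, the sterol isomerase, at 78.2 and 101 CPM in omental tumor, against 72.2 and 141 CPM in spleen. Both overlapped (0.19 and -0.25). Sc5d, the C5 desaturase, was lower in both omental tumor libraries, at 95.2 and 76.2 CPM, against 123 and 182 CPM in spleen (-0.83 ± 0.74, edgeR adjusted p = 0.715). Dhcr7, which reduces 7-dehydrocholesterol to cholesterol, was level in mouse 2, at 14.3 CPM in either tissue, and stood at 4.81 CPM in the tumor, against 23.7 CPM in the spleen, of mouse 3 (-0.96 ± 0.86).

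Per kb of exon, the highest mean levels among the synthesis genes were those of Ebp, with 38.8 CPM per kb in omental tumor, against 46.2 in spleen, Cyp51, with 35.4 in omental tumor, against 30.7 in spleen, and Idi1, with 34.2 in omental tumor, against 36.02 in spleen. The tissue ratio of the synthesis genes differed between the mice. Their median log2 ratio of omental tumor over spleen was 0.19 within mouse 2 and -1.22 within mouse 3, while the medians of all genes were 0.07 and 0.09. Within mouse 3 the ratio was negative for 17 of the 18, Pmvk being the other, and within mouse 2 it was positive for 11. Of all genes, 36.9% were higher in omental tumor in both mice, 16.4% in mouse 2 only and 14.9% in mouse 3 only. Most genes were thus positive within either mouse. The pattern of higher in mouse 2 and lower in mouse 3 held for 10 of 18, against 16.4% of all genes. Lower in both mice held for 7, namely Acat2, Mvd, Fdft1, Tm7sf2, Msmo1, Nsdhl and Sc5d, against 31.6% of all genes. These counts depend on the scaling. With library gene totals Acat2 (25.7 against 23.5) and Msmo1 (84.1 against 75.7) were higher in omental tumor than in spleen of mouse 2. Fdps was then higher in mouse 3 too (108 against 92.1), and so, like Pmvk, in both mice. Summed over the 18 genes, the level was 1127 and 706 CPM in omental tumor, against 895 and 1561 CPM in spleen, so that both mouse 3 libraries lay outside the 2 of mouse 2, on opposite sides. With library gene totals in place of TMM the sums were 1290 and 741 in omental tumor, against 915 and 1254 in spleen, and the spleen of mouse 3 then lay between the mouse 2 libraries.

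The omental tumor of mouse 3 was the lowest library for 12 of the 18 synthesis genes, against 36.9% of all genes, and the spleen of mouse 3 the highest for 14, against 30.9%. Both held for 10 genes, against 21.5%. That omental tumor library was the shallowest and the one with 1468 CPM of neutrophil markers, and the spleen of mouse 3 was the deepest and had the highest summed T cell and Treg markers. Those 10 markers summed to 5046 and 5217 CPM in omental tumor, against 5593 and 9031 CPM in spleen. Of the 10, 9 had negative fold changes and 0 were called, with a median of -0.49. Ctla4 was the other, at 1239 and 1290 CPM in omental tumor, against 391 and 764 CPM in spleen. The omental sums were close, but single markers moved in opposite directions between the mice. Cd4 stood at 376 and 114 CPM in omental tumor, against 568 and 1008 CPM in spleen, and Il2ra at 690 and 320 CPM in omental tumor. Cd3d stood at 334 and 913 CPM and Cd3g at 400 and 1100 CPM in omental tumor. Genes took 46.0% of the entries in the spleen of mouse 3, against 17.1% to 24.9% in the other 3 libraries. Entries outside annotated genes made 27.3% in omental tumor, against 24.8% in spleen, of mouse 3, and 48.9% in omental tumor, against 44.2% in spleen, of mouse 2. The part of depth, of these shares, of neutrophil RNA and of the share of T cells in the mouse 3 values was not tested. Scaling touches the second count more than the first: with library gene totals the omental tumor of mouse 3 was still lowest for 12 genes (34.4% of all genes), and the spleen of mouse 3 was highest for 8 (17% of all genes). Without the spleen library of mouse 3 the median tissue difference of the list was 0.01, and without the omental tumor library of mouse 3 it was -0.42, against -0.59 with all libraries.

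**Figure D3:**
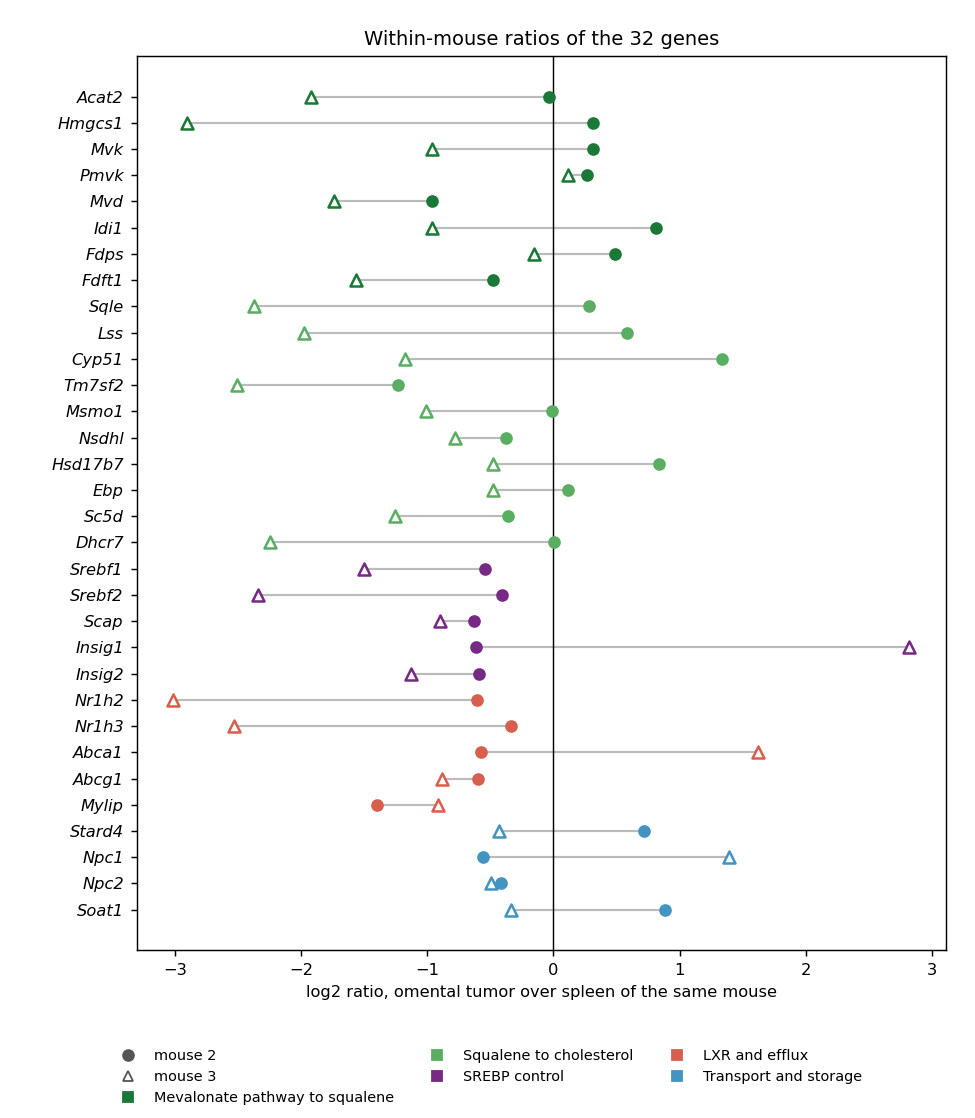
Log2 ratio of omental tumor over spleen within each mouse for the 32 genes, filled circles for mouse 2 and open triangles for mouse 3, colored by role, with a grey line joining the pair. For most synthesis genes the circle lies near or right of 0 and the triangle left of it, while Insig1, Abca1 and Npc1 show the opposite order.

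Of the 5 genes that control SREBP, 4 had negative fold changes (46.1% of all genes), with a median of -0.90. All 5 were lower in omental tumor within mouse 2, where 31.6% of all genes were lower in both mice and 14.9% in mouse 2 only. Srebf2, the gene of SREBP-2, which drives cholesterol synthesis, had the highest mean level of the 5 per kb of exon, 22.3 CPM per kb in omental tumor, against 54.2 in spleen. By library it stood at 225 and 94.7 CPM in omental tumor, against 299 and 480 CPM in spleen. Means were 160 ± 92.3 CPM in omental tumor, against 390 ± 128 CPM in spleen (SD, n = 2 per tissue), the groups did not overlap, and the difference of -1.28 ± 0.80 was not called (edgeR adjusted p = 0.597). Srebf1, whose SREBP-1 products act mostly on fatty acid genes, was also lower in both omental tumor libraries, at 92.2 and 39.5 CPM, against 134 and 112 CPM in spleen (-0.90 ± 0.74, edgeR adjusted p = 0.696). Scaled per kb of exon, Srebf2 stood at 1.92 and 1.88 times the level of Srebf1 in omental tumor, against 1.74 and 3.35 times in spleen. Scap, the sterol-sensing escort, stood at 50.9 and 17.0 CPM in omental tumor, against 78.8 and 31.8 CPM in spleen. It was lower in the omental tumor of each mouse but overlapped between tissues, with mouse 2 the higher mouse in both.

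The Insig genes parted in a single library. Insig1, itself an SREBP target, stood at 26.9 and 29.9 CPM in omental tumor, against 41.3 and 4.03 CPM in spleen. The low value came from 44 reads in the deepest library, while there were 205 and 118 reads in omental tumor, against 422 in the spleen of mouse 2. Omental tumor thus stood at 0.652 of the spleen level in mouse 2 and at 7.42 times it in mouse 3, and the fitted difference was 0.33 ± 0.78 (edgeR adjusted p = 0.889). Insig2, the second retention protein, showed no such drop, at 30.7 and 31.6 CPM in omental tumor, against 46.4 and 69.6 CPM in spleen (-0.90 ± 0.75). Scaled per kb of exon, Insig1 stood at 0.984 and 1.06 times Insig2 in omental tumor, against 0.9997 and 0.0649 times in spleen. The library with the lowest Insig1 was the one highest in 14 of the 18 synthesis genes (30.9% of all genes), or in 8 with library gene totals (17% of all genes). Abca1 and Npc1 were also lowest there, and the share of all genes lowest in that library was not counted. Though the deepest, that library had reads in the fewest genes, 19976, against 20621 to 22060 in the others. The part of this in its low values was not tested. A link between Insig1 and the synthesis genes was not tested, and the low value is that of 1 library. Insig1 was negative without the spleen library of mouse 3, at -0.27.

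The 5 LXR and efflux genes had a median fold change of -1.29. Nr1h2, which encodes LXR beta, the receptor found in most tissues, stood at 63.4 and 15.4 CPM in omental tumor, against 96.4 and 126.5 CPM in spleen. Both omental tumor libraries lay below both spleen libraries, at 0.658 of the spleen level in mouse 2 and 0.122 in mouse 3. The difference was -1.49 ± 0.75, with an unadjusted p of 0.0466 and an edgeR adjusted p of 0.477. Nr1h3, the gene of LXR alpha, typical of liver and macrophages, was at low counts, with 15 and 6 reads in omental tumor, against 26 and 109 in spleen. This gave 1.97 and 1.52 CPM in omental tumor, against 2.54 and 9.97 CPM in spleen (-1.81 ± 1.11, edgeR adjusted p = 0.594). The macrophage and monocyte markers, given above, were split, with 8 of the 13 tested negative and their sum higher in omental tumor, and the part of macrophage RNA in the Nr1h3 values was not tested. Per kb of exon, Nr1h2 stood at 24.1 and 7.62 times the level of Nr1h3 in omental tumor, against 28.4 and 9.51 times in spleen.

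The exporters and the ligase were mixed. Abcg1, which loads cholesterol onto lipoproteins, was lower in both omental tumor libraries, at 56.4 and 62.0 CPM, against 85.7 and 114 CPM in spleen (-0.76 ± 0.74, edgeR adjusted p = 0.735). Abca1, which loads it onto apolipoprotein A-I, stood at 26.4 and 37.7 CPM in omental tumor, against 39.3 and 12.1 CPM in spleen. It overlapped, with a ratio of 0.671 in mouse 2 and 3.12 in mouse 3, and its fitted difference was 0.31 ± 0.77. Mylip, the LXR-induced ubiquitin ligase that marks lipoprotein receptors for breakdown, stood at 16.0 and 4.30 CPM in omental tumor, against 42.6 and 8.33 CPM in spleen. It was lower in the omental tumor of each mouse, at 0.376 and 0.517 of the spleen level, though the groups overlapped (-1.29 ± 0.83, edgeR adjusted p = 0.617). All 5 genes were lower in omental tumor within mouse 2 and 4 within mouse 3, Abca1 being the exception. Of all genes, 31.6% were lower in both mice, 14.9% in mouse 2 only and 16.4% in mouse 3 only.

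The 4 transport and storage genes had a median of 0.19, and each overlapped between tissues. Npc2, the soluble lysosomal sterol carrier, had the highest mean level per kb of exon of the 4 and stood at 147 and 219 CPM in omental tumor, against 196 and 309 CPM in spleen (-0.46). Npc1, the membrane protein that takes cholesterol from Npc2 and exports it from the lysosome, stood at 14.4 and 34.7 CPM in omental tumor, against 21.3 and 13.1 CPM in spleen (0.50 ± 0.80, edgeR adjusted p = 0.833). Stard4, a cytosolic sterol carrier, stood at 56.3 and 40.8 CPM in omental tumor, against 34.2 and 55.2 CPM in spleen (0.12). Soat1, which esterifies cholesterol for storage, stood at 137 and 97.7 CPM in omental tumor, against 74.2 and 123 CPM in spleen (0.25). Insig1, Abca1 and Npc1 were the 3 members lower in omental tumor within mouse 2 and higher within mouse 3, against 14.9% of all genes. Stard4 and Soat1 shared the order of Cyp51 and Idi1, with omental tumor above spleen in mouse 2 and below it in mouse 3. The 4 genes summed to 355 and 392 CPM in omental tumor, against 325 and 500 CPM in spleen, which overlap. With library gene totals the transport sums were 406 and 411 in omental tumor, against 333 and 402 in spleen, and did not overlap.

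**Figure D4:**
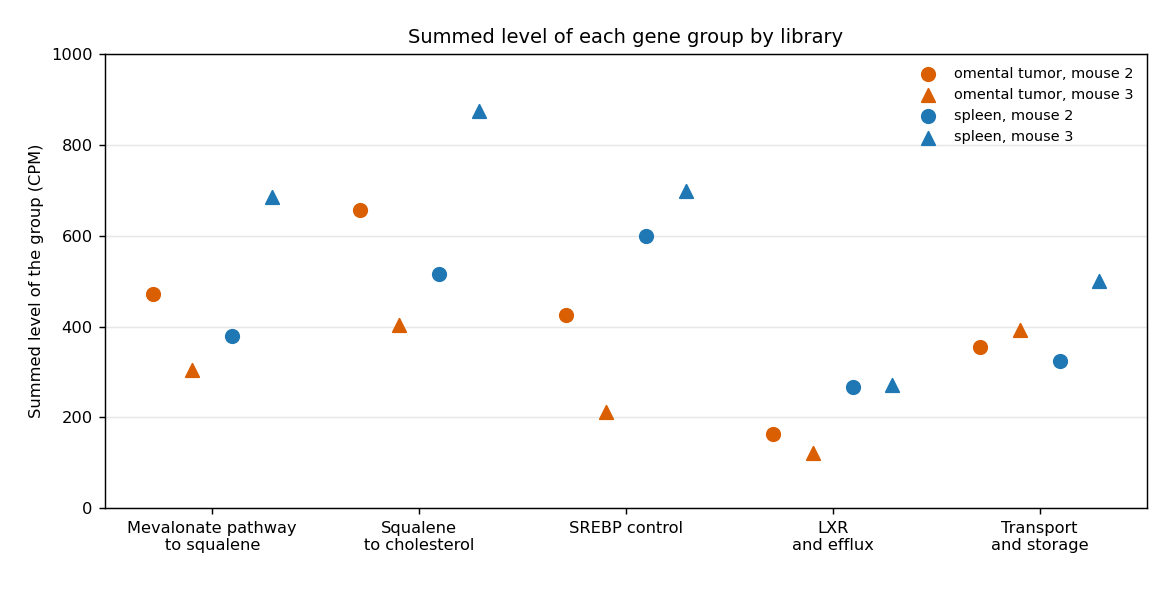
Summed CPM of each role group in each library, orange for omental tumor and blue for spleen, circles for mouse 2 and triangles for mouse 3. SREBP control and LXR and efflux sums were lower in both omental tumor libraries than in both spleen libraries, while the synthesis and transport sums overlapped between tissues with TMM scaling.

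Synthesis was then set against efflux, the comparison for which the 2 groups were drawn up. The LXR and efflux genes summed to 164 and 121 CPM in omental tumor, against 267 and 271 CPM in spleen, and the SREBP control genes to 426 and 213 CPM in omental tumor, against 600 and 698 CPM in spleen, with no overlap in either. The median tissue difference was 0.70 higher for synthesis than for the LXR and efflux genes on the log2 scale. The LXR and efflux median was the value of the ligase Mylip, -1.29, with the receptors Nr1h2 and Nr1h3 below it, at -1.49 and -1.81. The exporters Abca1 and Abcg1 stood at 0.31 and -0.76, on either side of the synthesis median of -0.59, so the difference does not describe export alone. The sign was not shared by the mice: the synthesis median exceeded the efflux median by 0.79 within mouse 2 and was 0.30 below it within mouse 3. Scaled per kb of exon, the synthesis genes summed to 8.13 and 10.7 times the efflux genes in omental tumor, against 3.97 and 6.72 times in spleen. Both omental tumor ratios exceeded both spleen ratios, and both mouse 3 ratios exceeded the mouse 2 ratio of their tissue. Within mouse 3 the order of the tissues was opposite to that of the medians. The LXR and efflux sums per kb were 34.9 and 18.7 in omental tumor, against 58.5 and 61.1 in spleen. The receptor gene Nr1h2 made a large part of them, with a mean of 11.8 in omental tumor, against 33.2 in spleen. The part of Nr1h2 in the ratios was not tested. Without scaling per kb the ratios were 6.87 and 5.83 in omental tumor, against 3.36 and 5.75 in spleen, which left omental tumor and spleen of mouse 3 nearly level. These ratios do not depend on library scaling, and they were given no test. Leaving out the spleen library of mouse 2 brought the difference of medians to 0.05.

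Other genes of the pathway, from lists drawn up by function, were not called either. Of 11 further genes of sterol synthesis and its control, 0 were called and 8 were negative, with a median of -0.16. Those with the highest mean CPM were Lbr, above, and Mbtps1, the protease that makes the first SREBP cut, at 169 and 34.4 CPM in omental tumor, against 245 and 356 CPM in spleen (-1.55 ± 0.78, edgeR adjusted p = 0.477). Of 13 genes of the non-sterol isoprenoid branch 0 were called, with a median of -0.06. Those with the highest mean CPM there were Ggps1, which makes geranylgeranyl pyrophosphate, at 61.4 and 54.7 CPM in omental tumor, against 99.3 and 135 CPM in spleen, and Rabggta, a prenyltransferase subunit for Rab proteins, at 53.0 and 25.8 CPM in omental tumor, against 77.9 and 101 CPM in spleen. Of 18 further uptake, transport and storage genes 0 were called, with a median of 0.08. The lysosomal lipase Lipa, which frees cholesterol from esters, stood at 69.7 and 34.9 CPM in omental tumor, against 110 and 192 CPM in spleen (-1.52 ± 0.75, edgeR adjusted p = 0.469), and the sterol transporter Gramd1a at 112 and 64.3 CPM in omental tumor, against 281 and 74.8 CPM in spleen.

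The other LXR partners and targets had a median of -0.92 over 8 tested of 10, with 0 called and 6 negative. Smpdl3a, a phosphodiesterase induced by LXR in human macrophages, stood at 153 and 149 CPM in omental tumor, against 267 and 402 CPM in spleen (-1.15 ± 0.79, edgeR adjusted p = 0.645). Abca7, a lipid transporter related to Abca1, stood at 133 and 17.7 CPM in omental tumor, against 250 and 261 CPM in spleen (-1.75 ± 0.77, edgeR adjusted p = 0.376). Both lay below the spleen in each mouse. The SREBP-1 fatty acid genes, 12 tested of 13 and 0 called, had a median of 0.09, with 0.65 within mouse 2 and -0.43 within mouse 3. Acly, which supplies cytosolic acetyl-CoA, stood at 482 and 39.5 CPM in omental tumor, against 464 and 726 CPM in spleen, and the elongase Elovl5 at 520 and 189 CPM in omental tumor, against 344 and 569 CPM in spleen. Both were above or level with the spleen in mouse 2 and below it in mouse 3, as were 10 of the 18 synthesis genes.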

How the data were processed

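The deposited values are raw counts per gene, 1 file for each of 4 libraries; per the labels' protocols cDNA was made with SMART-seq v4 and tagmented with Nextera XT. Per the submitters' processing notes, the authors used Trim Galore, TopHat2, SAMtools and HTSeq with mm10; versions, annotation and strandedness were not given in the sources used. The 5 summary entries of each file, 54.0% to 82.9% of its total, were left out. In R 4.3.3, edgeR 4.0.16 kept 16322 of 24421 genes (filterByExpr, minimum count 10), scaled libraries by TMM (1.15 and 1.05 for omental tumor, 1.03 and 0.804 for spleen) and tested tissue by glmQLFit with legacy=FALSE and glmQLFTest, Benjamini-Hochberg adjusted over all genes; SE is the log2 fold change over the root of F. Prior degrees of freedom were infinite, so SE and p do not reflect the spread of a single gene between mice. Ratios within a mouse used a prior count of 2 on the log scale; fold values used CPM directly. CPM per kb used exon lengths of GENCODE M21. The labels mark the same mouse in both tissues, so the numbers pair the samples; same-mouse deviations correlated at 0.234. The fit was tested on simulated counts. Members, lists and tests were chosen with earlier results of these data known. All 32 members are named; of other lists, called genes and the 2 with the highest mean CPM, others being said to be chosen after their values were seen; of markers, Foxp3 and those chosen after their values were seen. Alternatives were RLE and upper-quartile factors, library gene totals, no filter, DESeq2 1.42.0, a minimum count of 50, voom in limma 3.58.1, a replicate block, leaving out each library, and, added after seeing the data, legacy glmQLFit.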

Additional observations from a re-analysis of the deposited data

How the results depend on the processing

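No member was called under any setting; the lowest adjusted p of a member was 0.163, without the omental tumor library of mouse 2, and 0.195 with the replicate block, which changed no member's call. The block called 261 genes, 152 of them shared with the fit without it. Against 233 calls among all genes, library gene totals gave 28, no filter 0 in edgeR (1903 at an unadjusted p under 0.05), a minimum count of 50 gave 4, and DESeq2 363 (14172 of 23104 genes with an adjusted p). Leaving out 1 library gave 60 to 273, the lone library of a tissue being assumed to vary like the other pair. Log2 fold changes shifted by a median of 0.47 over genes with upper-quartile factors, 0.28 with gene totals, 0.27 at a minimum count of 50, 0.10 with RLE and -0.15 with no filter. The LXR and efflux median, -1.29, was -0.90 with upper-quartile factors, -0.80 at a minimum count of 50, where Nr1h3 was not tested, and -1.01 with limma-voom, and ran from -2.06 to -0.33 over left-out libraries. The synthesis median ran from -0.96 to 0.01 over left-out libraries and was -0.06 with upper-quartile factors. The synthesis minus efflux difference stayed positive, at 0.42 to 0.84 under the settings that keep all libraries and 0.05 to 1.15 over left-out libraries. Its sign nevertheless differed between the mice, at 0.79 within mouse 2 and -0.30 within mouse 3, an SD of 0.77. With upper-quartile factors the sign turned for Mvk (0.18), Idi1 (0.42), Lss (0.0024), Ebp (0.30) and Npc2 (0.093); with gene totals for Mvk (0.013), Idi1 (0.27) and Ebp (0.066); with no filter for Fdps (-0.058) and Stard4 (-0.034); and at a minimum count of 50 for Idi1 (0.23) and Ebp (0.065). The causes were not tested. Over left-out libraries the sign turned at least once for Cyp51 (-0.80 to 0.86), Hsd17b7 (-0.21 to 0.74), Stard4 (-0.24 to 0.72), Soat1 (-0.13 to 0.87), Pmvk (-0.34 to 1.01), Idi1 (-0.60 to 0.61), Fdps (-0.34 to 0.92), Lss (-1.71 to 0.0905), Abca1 (-0.0408 to 1.35), Npc1 (-0.34 to 1.002), Scap (-1.71 to 0.0353), Mylip (-2.56 to 0.24), Mvk (-0.72 to 0.21), Msmo1 (-0.97 to 0.13), Nsdhl (-0.95 to 0.0121), Ebp (-0.71 to 0.61), Insig1 (-0.27 to 2.75) and Npc2 (-0.87 to 0.22), uncalled throughout.
With 3764508 counts, the omental tumor library of mouse 3 limits low transcripts most: Tm7sf2 and Nr1h3 rest on 6 reads each there. With 2 libraries per tissue, a difference near the members' standard errors was not detectable.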

Other observations

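Of genes next to the cholesterol pathway, 3 more were chosen after their values were seen, and none of them was called. Tmem97, the sigma-2 receptor, which binds Npc1, stood at 63.7 and 120 CPM in omental tumor, against 18.9 and 37.6 CPM in spleen (log2 fold change 1.70 ± 0.75, edgeR adjusted p = 0.382), and was higher in both mice. Scd1, the stearoyl-CoA desaturase, stood at 16.9 and 5.32 CPM in omental tumor, against 4.11 and 0.549 CPM in spleen (2.29 ± 1.01, edgeR adjusted p = 0.373), also higher in both mice. Fasn, the fatty acid synthase, stood at 268 and 33.4 CPM in omental tumor, against 185 and 160 CPM in spleen (-0.19 ± 0.75, edgeR adjusted p = 0.932), with the tissues in opposite order in the mice.

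In the list for oxysterol synthesis and sensing, 3 of 6 genes were tested and 0 called, with a median of 0.78. Gpr183, the receptor for a dihydroxylated oxysterol, stood at 237 and 251 CPM in omental tumor, against 147 and 238 CPM in spleen, and Hsd3b7, which inactivates that oxysterol, at 11.4 and 9.62 CPM in omental tumor, against 3.43 and 8.88 CPM in spleen. Ch25h, the cholesterol 25-hydroxylase, also chosen after its values were seen, did not pass the filter on low counts, with 5 and 81 reads in omental tumor and 1 read in each spleen library. The 81 reads came from the library with the highest neutrophil, macrophage and monocyte and adipocyte marker sums, and the part of those cells was not tested. The adipocyte sum there was nearly all Fabp4, with Adipoq at 0.760 CPM and Plin1 and Cidec at 0.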
